A study of Mus musculus with 12 samples.

Results

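Hras, Nras, Braf, Map2k1, Map2k2, Mapk3 and Map2k5 are 7 of the 56748 genes in the deposited table and form the core that carries a signal from Ras to the ERK kinases. They were taken by gene symbol, from a list made with earlier results of these data known. RNA was sequenced from 12 mouse libraries at 2 weeks of age, 3 for each genotype in each of 2 fractions. The whole-retina fraction is total lysate, and the rod fraction is Rod-TRAP, in which mRNA is pulled down with HA-tagged ribosomes. Every mouse was homozygous for RiboTag, an allele that puts the HA tag on the ribosomal protein Rpl22 where Cre is active, and carried i75-Rod-Cre, which drives Cre in rods. Control mice (Het) had the genotype RiboTag;Shp2fl/+;i75-Rod-Cre and so lost 1 floxed copy of Shp2 in Cre-expressing rods, and knockout mice (KO) had RiboTag;Shp2fl/fl;i75-Rod-Cre. The sample titles call the controls wt, but no group with 2 intact copies of Shp2 in rods was compared. The tissue came from mice perfused with cycloheximide. The sources used here do not say which libraries came from separate animals, so p-values measure the spread between these libraries only.

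Ras proteins are small GTPases that switch on at the membrane after receptor tyrosine kinases recruit exchange factors, and Shp2, the phosphatase encoded by Ptpn11, promotes this step in many cell types. Active Ras recruits RAF kinases such as Braf, which phosphorylate the MEK kinases Map2k1 and Map2k2, which phosphorylate ERK kinases such as Mapk3. Map2k5 belongs to a parallel branch in which it phosphorylates Mapk7, the kinase also called ERK5. In the retina the pathway is known for growth factor responses of Müller glia and for stress responses of photoreceptors.

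The paralogues of the core encode closely related proteins from transcripts of different base composition. The longest protein-coding transcript in GENCODE M21 (GRCm38) had a GC content of 60.4% for Map2k2 and 51.2% for Map2k1, of 55.2% for Hras and 42.6% for Nras. It was 57.6% for Mapk3, 53.9% for Map2k5 and 42.6% for Braf, so that Map2k2 stood at the 96.9th percentile of genes and Nras at the 23.9th. Coding stretches of the MEK paralogues are shown because they encode the same residues and differ only in silent bases. Capitals mark the bases that differ between the pair, and each stretch is the end of the longest run of residues that the pair shares, which is 70 residues long.
Map2k1, codons 231 to 255: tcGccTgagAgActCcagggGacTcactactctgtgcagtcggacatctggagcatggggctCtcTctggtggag
Map2k2, codons 235 to 259: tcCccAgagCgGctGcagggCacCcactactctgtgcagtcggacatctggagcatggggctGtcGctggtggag
The MEK stretches differed at 9 of 75 bases, 8 of them at the last position of a codon, and held 60.0% GC in Map2k1 and 65.3% in Map2k2. Over the whole coding sequence, GC at the last position of codons was 79.0% in Map2k2, 66.9% in Map2k1, 65.1% in Hras and 56.6% in Nras. Map2k2 lies on chromosome 10 and Map2k1 and Map2k5 on chromosome 9. Hras and Mapk3 lie on chromosome 7, Nras on chromosome 3 and Braf on chromosome 6, where 146 exonic bases of Braf are shared with Ndufb2 on the opposite strand.

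The deposited values are whole numbers that sum to between 14525527 and 14527992 in the retina libraries and between 16263948 and 16265259 in the rod libraries, so they had been scaled to a common total and the depth of each library is unknown. Rod markers (7 genes) summed to 13.6% to 16.1% of a rod library and 4.41% to 5.62% of a retina library, and all 7 were higher in rods than in retina. The 45 markers of other cell types summed to 0.0692% to 0.0992% in Het rods and 0.0814% to 0.136% in KO rods, ranges that overlap. By cell type, the 5 amacrine markers, at 0.00315% to 0.00344% in Het and 0.00377% to 0.00485% in KO rods, and the 5 microglia markers, at 0.000154% to 0.00115% and 4.30e-05% to 7.38e-05%, did not overlap. Between KO and Het rods 1 amacrine marker was called higher and the 1 microglia marker tested was called lower, at -3.93. Of all tested genes 11.2% were called higher there and 1.91% lower. With a median of 2.96, 0 of 4 lens markers passed. The microglia sums are near the floor, since C1qa, C1qb, Cx3cr1 and Csf1r were each at 0 in some Het rod library. In some KO rod library C1qa, Cx3cr1 and Lcp1 were at 0. How often other sets of 5 genes do not overlap is not given here. The part of these marker differences in the results on KO rods was not tested. Of the 45 markers, Lim2, a lens gene, was at 0 in every library, and the endothelial genes Cldn5 and Cdh5 were at 0 in every Het rod library. The 45 markers reached 0.588% to 1.87% in Het retina and 0.93% to 4.58% in KO retina, with lens markers alone at up to 3.93%. The 5 cone markers were closer between fractions than these sums. They held 0.0239% to 0.0394% in Het rods against 0.0792% to 0.0954% in Het retina. In KO mice they held 0.033% to 0.0357% in rods against 0.0837% to 0.0931% in retina. The libraries also differed in how their values rose or fell with GC content. This GC trend is given here as the median log2 deviation of the GC-richest decile of genes minus that of the GC-poorest decile, each gene set against its mean over the 6 libraries of the fraction. It ran from -0.81 to -0.23 in Het rods and from 0.28 to 0.76 in KO rods, without overlap, and from -0.84 to 0.86 in Het retina and from -0.63 to 0.90 in KO retina.

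Ptpn11, the targeted gene, was read first. After scaling of all 12 libraries together with TMM factors, Ptpn11 stood at 2905, 2802 and 2811 in the Het rod libraries, against 2026, 2422 and 2275 in those of KO mice. This unit is used for all scaled values of libraries below. Fold changes come from fits that scale only the libraries compared, unless all 12 are fitted. They can therefore differ from what the scaled values beside them give, most of all between rods and retina. Every KO rod library was below every Het rod library, with a log2 fold change of -0.26 (SE 0.09) that did not pass the test (limma, Benjamini-Hochberg adjusted p = 0.0636). In whole retina the difference was -0.04 (SE 0.14, limma adjusted p = 1). Because each gene has a single value in the table, the floxed exon is not read apart from the rest of Ptpn11, and the deletion is checked only in part. How many of all tested genes have groups without overlap is not given, here or in the comparisons below.

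Per kilobase of the longest transcript, Mapk3 and Map2k1 were the most abundant genes of the core in all 4 groups, and Nras was the least. In Het rods the mean scaled value per kilobase was 444 ± 45.6 for Mapk3 (SD, n = 3) and 409.9 ± 35.6 for Map2k1, and the libraries of this pair overlapped. Map2k5 followed at 165 ± 9.09 and Braf at 139 ± 18.5, then Hras at 113 ± 8.37, Map2k2 at 102 ± 22.9 and Nras at 89.5 ± 11.2. The step from Map2k1 to Map2k5 and that from Braf to Hras were free of overlap, whereas Map2k5 and Braf overlapped, as did Hras and Map2k2, and Map2k2 and Nras.

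The order changed in KO rods, where Map2k2 followed Map2k1 at 225 ± 61.1 per kilobase, above every library of Map2k5 at 146 ± 12.7. Braf came after Hras there, at 116 ± 8.68 against 122 ± 23.0, with overlapping libraries. In Het retina Braf followed Map2k1 at 193 ± 25.7, and Map2k2 spread from 60.3 to 240.4 between its 3 libraries. The transcript length sets these levels, and a shorter transcript of Braf, whose longest annotated form has 9728 bases, would raise its place.

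**Figure D1:**
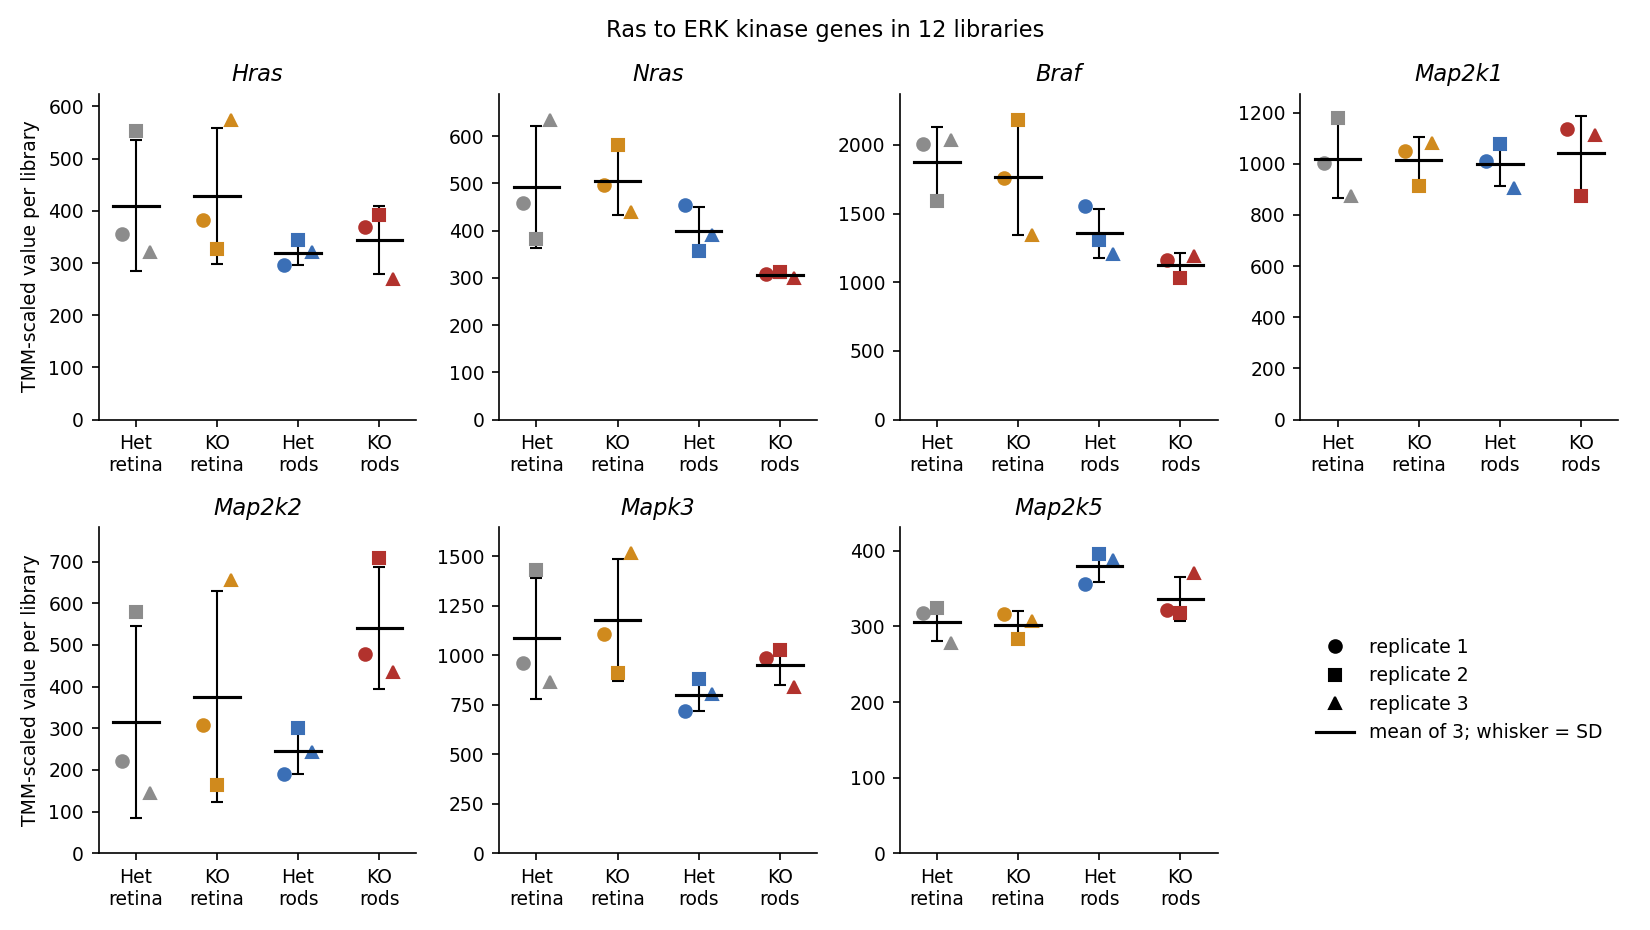
TMM-scaled value (vertical axes, linear from 0, a scale of its own for each gene) of the 7 genes in Het retina, KO retina, Het rods and KO rods. Each point is 1 library, its shape the replicate number, and bars are means of 3 with SD. For Map2k2 the KO rod libraries lie between 434 and 708, above the Het rod libraries at 191 to 301, whereas the retina libraries spread from 145 to 578 in Het and from 163 to 656 in KO mice.

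The first question was how the core differed between rods and whole retina, which holds all retinal cell types. In both genotypes 2 of the 7 genes were lower in rods and 0 were higher. Braf was lower in both, Mapk3 passed the test in Het mice and Nras in KO mice. A gene was called when its adjusted p was below 0.05 and its absolute log2 fold change above 0.5. By this rule 36.8% of 16110 tested genes were called lower and 21.4% higher in Het rods, and 36.5% of 16121 lower and 25.7% higher in KO rods, so 2 of 7 is no more than the share of all genes. The median log2 fold change of the 7 genes was -0.44 in Het mice, where the median of all genes was -0.11, and -0.30 in KO mice, where that median was -0.02. In whole retina, fewer cells of a type and less RNA per cell cannot be told apart. The rod libraries hold mRNA pulled down with ribosomes and the retina libraries total lysate. Cell type, binding to ribosomes and the pull-down itself therefore cannot be told apart, and lower in rods means lower in the rod fraction. The 2 comparisons use separate libraries throughout.

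Of the Ras genes, Nras had scaled values of 458, 383 and 634 in Het retina and 455, 356 and 390 in Het rods. In KO retina it had 497, 580 and 438, and in KO rods 308, 311 and 300. The KO groups did not overlap and the Het groups did. The log2 fold change of rods over retina was -0.73 (SE 0.14, limma adjusted p = 0.00182) in KO mice and -0.44 (SE 0.20, limma adjusted p = 0.0801) in Het mice, with a 95% interval of -0.89 to 0.01. With the GC trend of each library removed, Nras also passed in Het mice, at -0.62 (limma adjusted p = 0.000515), as it did without Het retina replicate 2, at -0.73. For this removal the trend was taken against each gene's mean over all libraries compared. Between rods and retina the removal therefore also takes out any mean difference that follows GC content.

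Hras had values of 355, 553 and 321 in Het retina, 296, 344 and 320 in Het rods, 383, 327 and 574 in KO retina and 369, 393 and 270 in KO rods. Het retina replicate 2 and KO retina replicate 3 were high and the other retina libraries lay near the rods. The differences of -0.48 (SE 0.22, limma adjusted p = 0.0892) in Het mice and -0.31 (SE 0.23, limma adjusted p = 0.264) in KO mice did not pass. Their 95% intervals were -0.99 to 0.03 and -0.85 to 0.22. Hras passed in Het mice without Het retina replicate 3, at -0.71, and in KO mice without KO retina replicate 2, at -0.68.

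Braf, the RAF kinase of the core, had values of 2009, 1590 and 2035 in Het retina and 1555, 1310 and 1204 in Het rods. It had 1762, 2182 and 1347 in KO retina and 1160, 1029 and 1188 in KO rods. Every rod library was below every retina library of its genotype. The log2 fold change was -0.64 (SE 0.14, limma adjusted p = 0.00359) in Het mice and -0.64 (SE 0.17, limma adjusted p = 0.00958) in KO mice. It remained past the thresholds without any single library, at -0.88 to -0.56 and -1.02 to -0.58. Removing the GC trend gave -0.82 and -0.63, past the thresholds in both genotypes.

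The MEK genes did not pass in either genotype. Map2k1 had values of 1001, 1179 and 873 in Het retina and 1010, 1079 and 907 in Het rods. In KO mice it had 1051, 912 and 1083 in retina and 1135, 873 and 1114 in rods. These overlapped throughout, with differences of -0.19 (95% interval -0.53 to 0.15) and 0.01 (-0.31 to 0.33). Map2k2 had values of 222, 578 and 145 in Het retina and 191, 301 and 243 in Het rods. In KO mice it had 309, 163 and 656 in retina and 479, 708 and 434 in rods. The differences were -0.31 (SE 0.46) and 0.69 (SE 0.46), and their 95% intervals, -1.35 to 0.74 and -0.36 to 1.75, leave room for a fall or a rise by more than the threshold in Het mice. Without the GC trend Map2k2 was higher in KO rods than in KO retina, at 0.84 (SE 0.23, limma adjusted p = 0.0108), as it was without KO retina replicate 3, at 1.01, and was at 0.49 (limma adjusted p = 0.0571) in Het mice.

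Mapk3, which encodes ERK1, had values of 959, 1433 and 865 in Het retina and 716, 880 and 804 in Het rods. In KO mice it had 1107, 911 and 1515 in retina and 986, 1026 and 839 in rods. In Het mice the rod value was lower, with a log2 fold change of -0.58 (SE 0.21, limma adjusted p = 0.0356). The rod and retina groups, as scaled for that fit, did not overlap, but on the scale of all 12 libraries Het rods replicate 2 lay just above Het retina replicate 3. With the GC trend removed the difference was -0.11 (limma adjusted p = 0.237), and in KO mice it was -0.30 (SE 0.19, limma adjusted p = 0.181). Without any 1 of the Het rod libraries, or without Het retina replicate 2, Mapk3 was not called in Het mice, at -0.65 to -0.49, and without KO retina replicate 2 it was called in KO mice, at -0.66.

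Map2k5, the MEK gene of the ERK5 branch, had values of 317, 324 and 278 in Het retina, 356, 396 and 387 in Het rods, 317, 283 and 307 in KO retina and 321, 318 and 371 in KO rods. The rod groups lay above the retina groups without overlap in both genotypes on this scale, in KO mice only just. As scaled for the fit of each genotype, the rod and retina groups overlapped in both. The differences of 0.14 (95% interval -0.19 to 0.47) and 0.13 (-0.19 to 0.45) did not pass.

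These fold changes depend on how rods and retina are put on 1 scale. With the deposited totals alone, the median of all genes moved by -0.40 in Het mice and by -0.53 in KO mice, and 5 of the 7 genes were called lower in each. Over all genes that scaling called 1157 higher and 7417 lower in Het mice, where TMM factors called 3453 and 5923, and 1125 and 7863 in KO mice, where TMM factors called 4144 and 5889. In 1 fit of all 12 libraries the median moved the other way in Het mice, by 0.14. There 0 of the 7 genes were called, with Braf at -0.50, and 4546 of all genes were called higher and 5673 lower. In KO mice that fit left the median at -0.02 and called 2 of the 7 genes lower, Nras and Braf. The fit also takes its spread from all 12 libraries. Relative to the median gene, Braf was at -0.53 with TMM factors and at -0.54 with deposited totals in Het mice, and at -0.62 and -0.63 in KO mice. The same pair of values for Nras was -0.33 and -0.34 in Het mice and -0.71 and -0.71 in KO mice. Map2k1 turned from 0.01 to -0.53 in KO mice with the deposited totals, and relative to the median gene it was at 0.03 and 0.02.

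**Figure D2:**
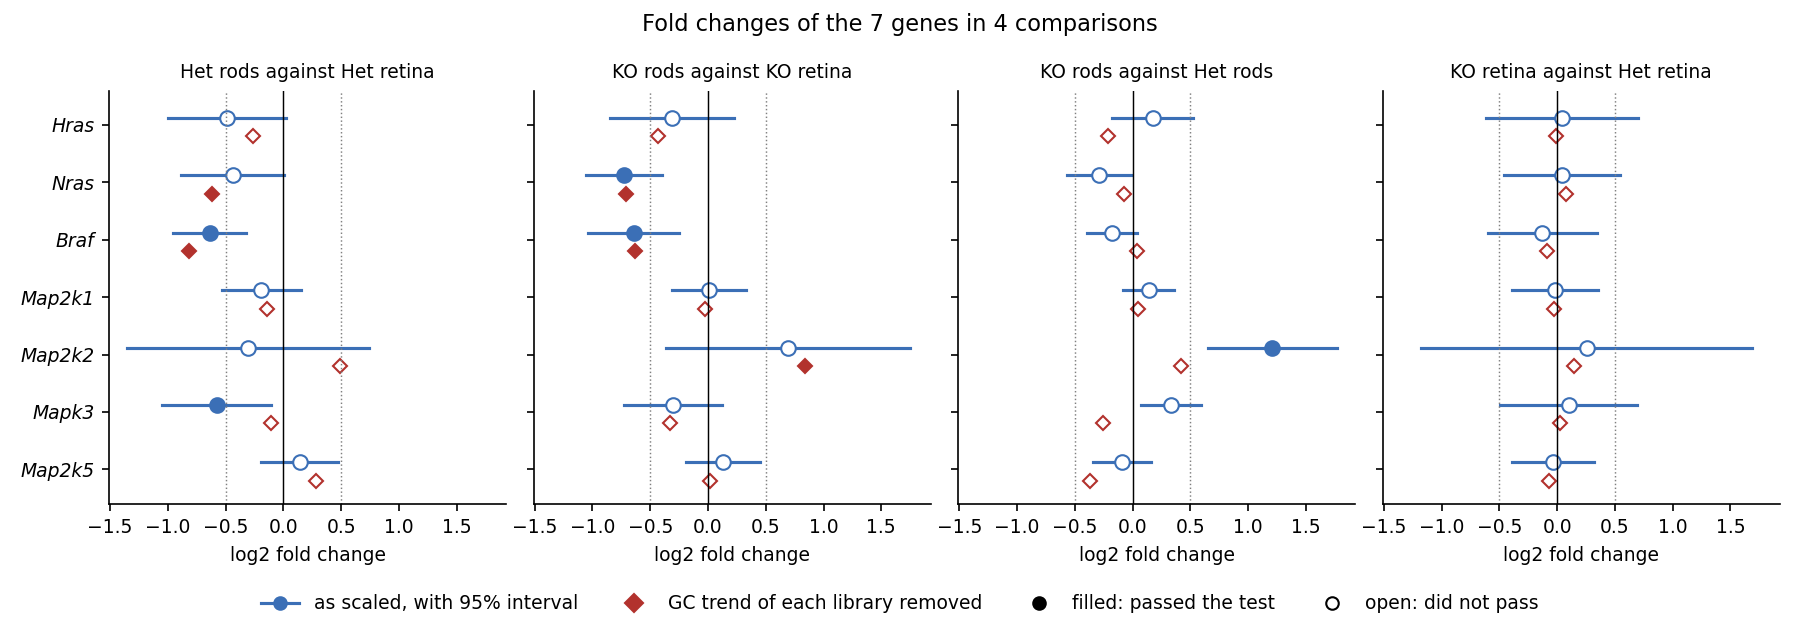
Log2 fold change (horizontal axes) of the 7 genes in 4 comparisons. Circles are values as scaled with their 95% intervals, diamonds are values after the GC trend of each library was removed, filled symbols passed the test and dotted lines mark the fold change limit of 0.5. Braf lies near -0.64 in both comparisons of rods with retina, Map2k2 at 1.21 is alone past the limit in KO rods against Het rods, and its diamond there lies at 0.42.

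Of 48 other genes of the pathway, sorted into 7 roles, 12 were higher and 11 lower in rods than in retina in Het mice, and the same counts were found in KO mice. Their median log2 fold change was 0.11 in Het mice and -0.01 in KO mice, against medians of all genes of -0.11 and -0.02. The lipid processing enzymes that attach and trim the Ras membrane anchor were called higher in 4 of 6 cases in both genotypes, where 21.4% and 25.7% of all genes were. They were Fnta, Fntb, Rce1 and Icmt. Which proteins these enzymes modify in rods was not tested. Icmt, the methyltransferase that completes the anchor, rose by 1.08 (SE 0.21) and 1.47 (SE 0.11), and Rce1, the protease before it, by 1.18 (SE 0.29) and 1.47 (SE 0.19). Of 11 genes of the Ras family and its loading, 5 were lower in both genotypes, against 36.8% and 36.5% of all genes, with Rasgrf1, a calcium-responsive exchange factor, at -5.33 (SE 0.23) and -4.86 (SE 0.19) and Rasgrp1, an exchange factor that binds diacylglycerol, at -4.96 (SE 0.23) and -4.54 (SE 0.33). Rras2, a Ras relative, was at -3.55 (SE 0.73) and -4.49 (SE 0.56), with deposited values of 0 to 24 in the 6 rod libraries.

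Among the GTPase-activating genes 3 of 7 were lower in both genotypes, a share near the 36.8% and 36.5% of all genes. Dab2ip was at -4.81 (SE 0.38) and -3.68 (SE 0.28). In the ERK5 branch, Mef2c, a transcription factor that ERK5 phosphorylates, rose by 1.47 (SE 0.14) and 1.49 (SE 0.14), and Mapk7 itself was lower in Het mice at -1.67 (SE 0.41). Mapk7 was at -1.06 (SE 0.42, limma adjusted p = 0.0526) in KO mice, with deposited values of 8 to 25 in rods. Among direct partners of the core, the RAF kinase gene Araf was at -0.45 (SE 0.13) in Het and -0.20 (SE 0.11) in KO mice, not past both limits. The scaffold gene Lamtor3 was at 0.38 (SE 0.13) and 0.29 (SE 0.12), Map3k2 at -0.34 (SE 0.17) and -0.44 (SE 0.16) and Map3k3 at -0.42 (SE 0.22) and -0.01 (SE 0.12). Ksr1, a scaffold that brings RAF to MEK, was at -0.79 (SE 0.35, limma adjusted p = 0.079) in Het mice, and passed with the replicate block (limma adjusted p = 0.00914), and was at -0.36 (SE 0.19) in KO mice. With the deposited totals Araf, Ksr1, Map3k2 and Map3k3 were called lower in both genotypes and Mapk7 in KO mice as well. Lamtor2, a partner of Lamtor3 in the same scaffold, was called higher in KO rods at 0.74 (SE 0.29) although its rod and retina libraries overlapped, and was at 0.03 (SE 0.28) in Het mice. That call was lost with the deposited totals, at 0.20 (limma adjusted p = 0.542), and with the replicate block, at 0.74 (limma adjusted p = 0.0543).

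The next question was what loss of the remaining Shp2 copy did to the core in rods. Of the 7 genes 1 was called higher in KO rods than in Het rods, Map2k2, and 0 were called lower, where 11.2% of 13055 tested genes were called higher and 1.91% lower. Scaled values of Map2k2 were 191, 301 and 243 in the Het libraries and 479, 708 and 434 in the KO libraries. Every KO library was therefore above every Het library, a separation whose share among all tested genes is not given here. The log2 fold change was 1.21 (SE 0.24, limma adjusted p = 0.0119), with a 95% interval of 0.65 to 1.77. It remained past the thresholds without any single library, at 0.96 to 1.38.

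The GC trend moved with genotype in these 6 rod libraries, and Map2k2 was the gene of the core richest in GC. The order of the 6 rod libraries by Map2k2 was the order by their GC trend, and the same held for the 6 retina libraries. Such an order in both fractions was found for 1.26% of 12921 genes, and for none of the other 6 genes of the core. The GC-richest decile of tested genes, which holds Map2k2, had a median log2 fold change of 0.69, and 53.9% of them were called higher. With the GC trend of each library removed, Map2k2 was at 0.42 (SE 0.12, limma adjusted p = 0.0455), below the fold change limit, and 156 genes were called higher and 192 lower, where 1460 and 250 had been called before. With the deposited totals alone, 1202 genes were higher and 586 lower, Map2k2 among the former at 1.13. An effect of genotype on genes rich in GC and a technical difference between the libraries cannot be told apart in these 6 libraries. In 1 fit of all 12 libraries, which takes its spread from the retina libraries too, Map2k2 was at 1.16 (SE 0.52, limma adjusted p = 0.201) and 0 of 13055 genes were called (limma), 3135 of them with an unadjusted p below 0.05.

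**Figure D3:**
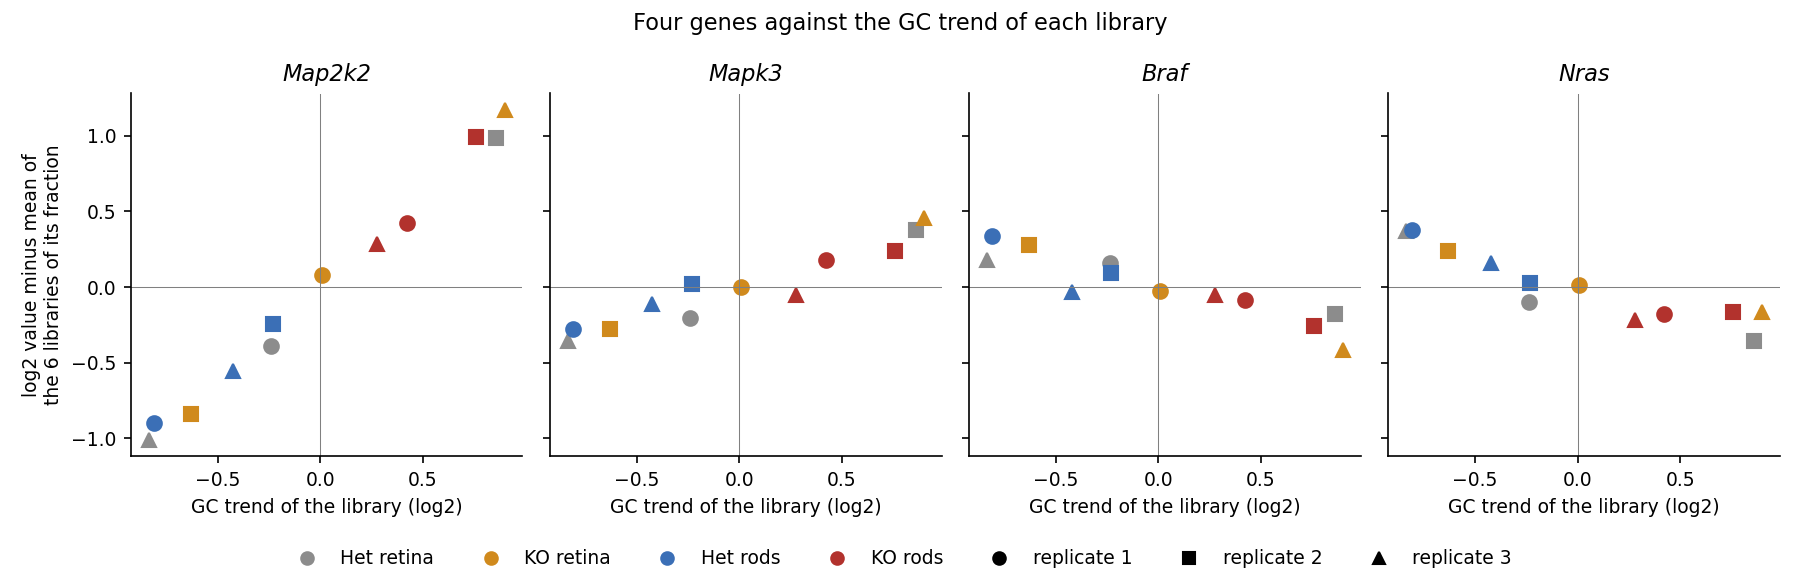
Log2 value minus the mean of the 6 libraries of its fraction (vertical axes) against the GC trend of the library (horizontal axes, log2) for Map2k2, Mapk3, Braf and Nras. Each point is 1 library, coloured by group and shaped by replicate number. Het rods sit at trends of -0.81 to -0.23 and KO rods at 0.28 to 0.76, Map2k2 and Mapk3 are higher and Braf and Nras lower in libraries to the right, and retina libraries of both genotypes lie at both ends.

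No other gene of the core passed the test in KO rods. Against 716, 880 and 804 in Het rods, Mapk3 had 986, 1026 and 839 in KO rods, overlapping between Het replicate 2 and KO replicate 3. Its log2 fold change was 0.33 (SE 0.12, limma adjusted p = 0.061), with a 95% interval of 0.07 to 0.59, and it turned to -0.25 (SE 0.08, limma adjusted p = 0.0599) with the GC trend removed. The median of the GC decile that holds it was 0.45.

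Nras was below every Het rod library in each KO rod library, at 308, 311 and 300 against 455, 356 and 390. Its difference of -0.29 (SE 0.13, limma adjusted p = 0.113) did not pass, and its 95% interval was -0.56 to -0.01. It was at -0.07 (SE 0.11) with the GC trend removed, and the median of its GC decile was -0.24. Braf, which lies in the same GC decile, was at -0.18 (SE 0.10, limma adjusted p = 0.211), with an interval of -0.39 to 0.04, and at 0.04 with the trend removed.

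Hras was at 0.17 (SE 0.16, limma adjusted p = 0.458), with an interval of -0.18 to 0.52 and overlapping groups. Map2k1, the closest relative of Map2k2, was at 0.14 (SE 0.10, limma adjusted p = 0.339), with an interval of -0.08 to 0.36, which lies below that of Map2k2. Map2k5 was at -0.09 (SE 0.12, limma adjusted p = 0.594), with an interval of -0.34 to 0.16, although the median of its GC decile was 0.28. After removal of the GC trend it was at -0.37 (SE 0.10, limma adjusted p = 0.0454), under the fold change limit. The median of the 7 genes was 0.14 and that of all genes -0.01.

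Of the other pathway genes 46 were tested in rods, and 4 were called higher and 0 lower, a share no larger than the 11.2% of all genes called higher. They were Dab2ip, a GTPase-activating protein, at 1.11 (SE 0.30), Lamtor2 at 0.83 (SE 0.16), Ksr1 at 0.52 (SE 0.15), and Rce1 at 0.52 (SE 0.12). Without 1 library the count was 1 to 7, the lowest without KO rods replicate 2 and the highest without KO rods replicate 3, and it was 2 without Het rods replicate 1 or 3. Their transcripts held 57.0% to 58.7% GC, and with the GC trend removed none of the 4 was called, with Dab2ip at 0.43 (limma adjusted p = 0.449), Lamtor2 at 0.29 (limma adjusted p = 0.0986), Ksr1 at -0.04 and Rce1 at -0.05. The median of the 46 genes was -0.03.

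**Figure D4:**
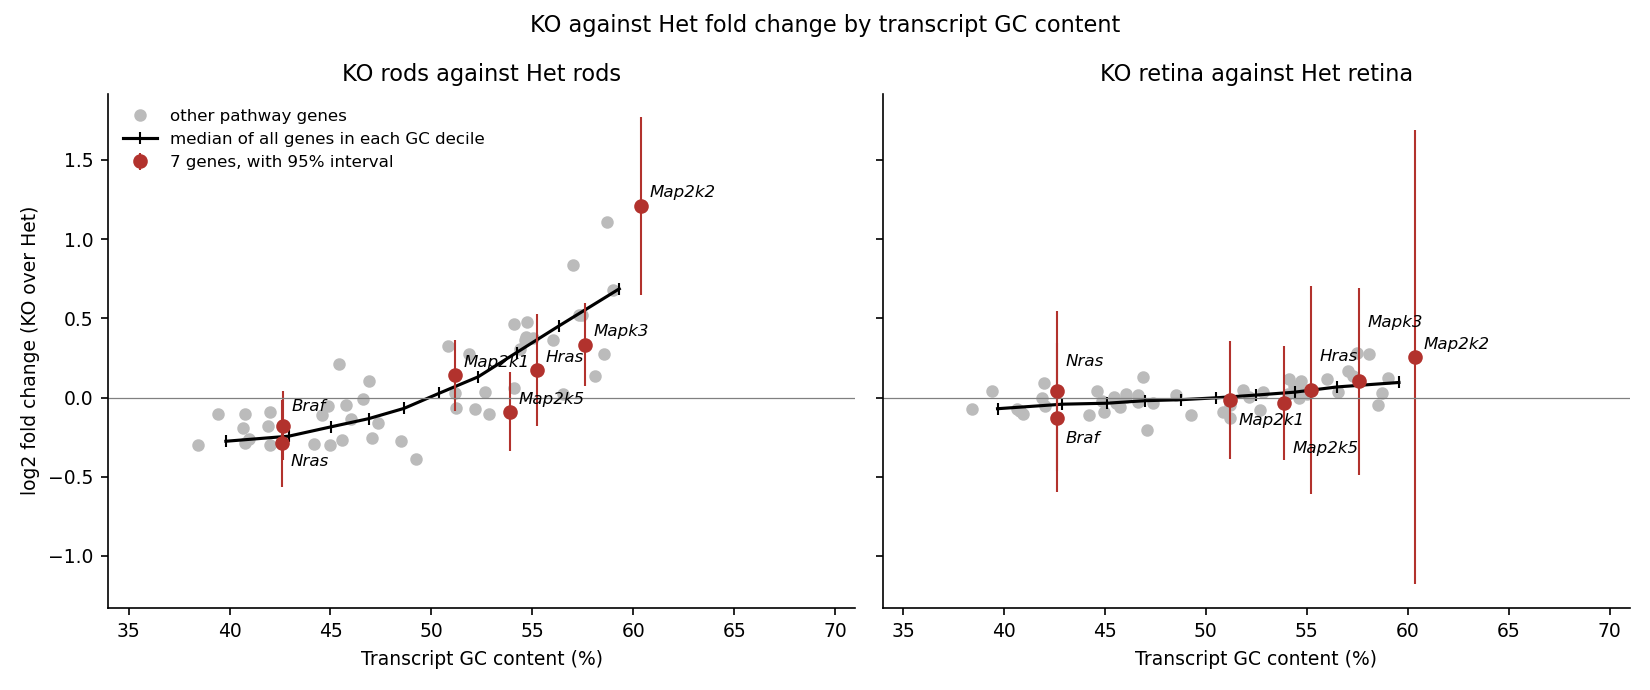
Log2 fold change of KO over Het (vertical axis) against transcript GC content in percent (horizontal axes) in rods (left) and whole retina (right). Red points are the 7 genes with 95% intervals, grey points the other pathway genes, and the black line joins the medians of all tested genes in deciles of GC content. In rods the line climbs from -0.28 to 0.69 and Map2k2 lies above its end, and in retina the line stays between -0.07 and 0.10.

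In whole retina, where rods and all other cell types are read together, 0 of the 7 genes and 0 of 16863 tested genes were called between KO and Het (limma, 0% in either direction), and 140 genes had an unadjusted p below 0.05. Leaving out 1 library called at most 1 gene. Fold changes of the core ran from -0.13 for Braf to 0.26 for Map2k2, with a median of 0.04. The limits of the comparison differed greatly between genes. The 95% interval was -1.18 to 1.69 for Map2k2 and -0.39 to 0.32 for Map2k5, so that for Map2k2 a change of the size seen in rods lies inside it. The SD of log2 values was 1.02 in Het retina and 1.001 in KO retina for Map2k2, and 0.41 and 0.47 with the GC trend removed. For Mapk3 the SD went from 0.39 to 0.11 in Het retina and from 0.37 to 0.05 in KO retina. Het retina replicate 2 and KO retina replicate 3, which held the highest GC trends of 0.86 and 0.90, also had the highest values of Map2k2, Mapk3 and Hras and the lowest of Braf.

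Whether the KO effect differed between rods and retina was tested over all 12 libraries, and 0 of 17192 genes were called (limma, 0% in either direction), while 604 genes had an unadjusted p below 0.05. For Map2k2 the KO effect in rods exceeded that in retina by 0.85 (SE 0.73, limma adjusted p = 0.803), with a 95% interval of -0.74 to 2.44. For Nras the difference was -0.44 (SE 0.25, limma adjusted p = 0.803), and the other 5 genes lay between -0.16 and 0.13. The rise of Map2k2 in KO rods was therefore not shown to differ from its change in retina.

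Paralogues were then set against each other within each library, since such a ratio does not depend on the scale of the library. Neither ratio shown here differed between rods and retina past the test. The log2 ratio of Map2k1 to Map2k2 was 2.39, 1.83 and 1.89 in Het rods, 1.24, 0.30 and 1.36 in KO rods, 2.16, 1.03 and 2.57 in Het retina and 1.76, 2.47 and 0.72 in KO retina. Its difference between rods and retina was -0.28 (exact two-sided permutation p = 0.49, adjusted p = 0.535 over the 4 pairs tested). In rods the KO libraries were below all Het libraries, by -1.07 on average (exact permutation p = 0.1, the smallest that 3 against 3 allow).

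The log2 ratio of Hras to Nras was -0.62, -0.05 and -0.28 in Het rods, 0.26, 0.33 and -0.15 in KO rods, -0.37, 0.53 and -0.98 in Het retina and -0.37, -0.82 and 0.39 in KO retina. The groups overlapped, and rods and retina differed by 0.19 (exact permutation p = 0.535, adjusted p = 0.535). In rods the KO libraries were higher by 0.46 on average (exact permutation p = 0.2).

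A ratio of genes with unlike GC content still carries the GC trend. The trend removed here was taken against each gene's mean over all 12 libraries. It therefore includes any mean difference between rods and retina that follows GC content. With that trend removed, the difference between rods and retina was -0.73 for Map2k1 over Map2k2 and 0.31 for Hras over Nras, and both passed (exact permutation, adjusted p = 0.00667 and 0.015). The smallest unadjusted p that 400 arrangements within genotype can give is 0.005.

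**Figure D5:**
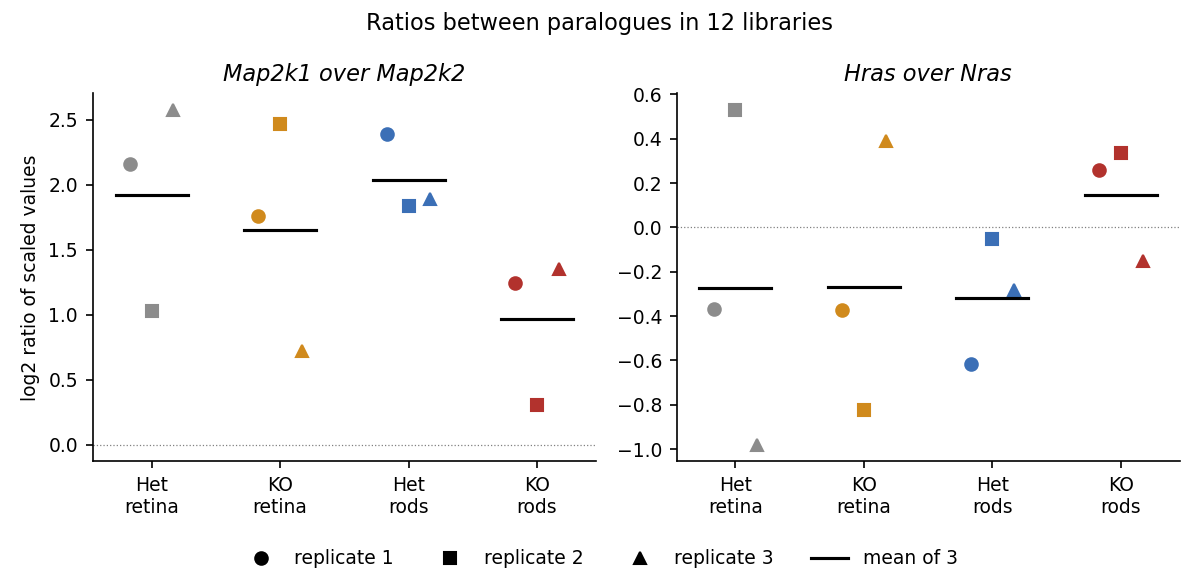
Log2 ratio of scaled values (vertical axes, a scale of its own for each pair) for Map2k1 over Map2k2 and Hras over Nras in Het retina, KO retina, Het rods and KO rods. Each point is 1 library, its shape the replicate number, and bars are means of 3. For Map2k1 over Map2k2 the KO rod libraries lie between 0.30 and 1.36 and the Het rod libraries between 1.83 and 2.39, and rods and retina overlap for both pairs.

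For each gene of the core, the genes with the most similar pattern over the 12 libraries were found among 10133 genes with a mean scaled value of at least 100, by Pearson's r of log2 values, as a description. Fzr1 and Elob followed Map2k2 most closely, at an r of 0.996 and 0.993, and Agpat1 and Slc27a1 followed Mapk3, at 0.98 for both. Uvssa and Nfat5 followed Braf, at 0.99 and 0.98, and Golm2 and Cyp4v3 followed Nras, at 0.99 and 0.97. The genes nearest to Hras were Mapk3, at 0.96, and Ptms, at 0.95. Map2k5 was followed by Anapc15 and Tfdp1, at 0.95 and 0.93, and Map2k1 by Hsp90ab1 and Phactr4, at 0.86 and 0.85. The transcripts of the genes nearest to Map2k2 held 59.9% and 57.4% GC, and those nearest to Braf 45.3% and 42.8%. Within the core, Nras and Braf had an r of 0.89, and Map2k2 had an r of -0.73 with Nras and -0.71 with Braf. All such values share the libraries and their GC trend.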

How the data were processed

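The authors deposited 1 table of whole numbers per gene and library, a signal proportional to read counts but scaled to a common total per fraction, a step not given in the sources used here and read from the totals. The submitters' processing notes name CASAVA 1.8.2, HISAT2, DESeq2, edgeR and GRCm39. RNA was isolated with Trizol and PureLink, and 100 ng went into SMART-Seq v4 cDNA. The strand setting and counting tool are not given in the sources used here. A count model was planned for raw counts only and was not used.

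Values were scaled with TMM factors, raised by a pseudocount of 2, transformed to log2 and fitted with limma 3.58.1 (trend and robust) in R 4.3.3, using only the groups compared. Genes needed a value of 10 in at least 3 libraries and a sum of 15. Fold changes are on the log2(value + 2) scale. The fits were also run on simulated data with independent noise, and no result given here rests on that run. GC content came from GENCODE M21 (GRCm38), matched by Ensembl identifier for 98.3% to 98.9% of tested genes. A lowess trend (span 0.3) with GC, centred on its median, was subtracted in 1 alternative. It was fitted to each library's deviation from the gene's mean over all libraries of the fit, rods and retina together where both were compared. Groups and replicate numbers came from the labels, and 0 columns belonged to other samples.

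The core, the 48 pathway genes and the marker lists were chosen with earlier results of these data known. Named genes are the core, Ptpn11, 9 direct partners, and in each comparison of 2 groups the 3 largest rises and 3 largest falls among called pathway genes, and for likeness the 2 genes of highest r; Fnta and Fntb were named after their values were seen. Some of these genes, and 2 of the 4 paralogue pairs over which p-values were adjusted, are not reported here. Same-numbered rod and retina libraries of Het mice deviated together (correlations of 0.47, 0.41 and 0.25). The sources used here do not say whether they came from the same mice. The main fits leave the replicate number out, and the replicate block, which adds it to the fit, is an alternative. In the other comparisons at least 1 pair was below 0.1.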

Additional observations from a re-analysis of the deposited data

How the results depend on the processing

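Of 1742 values of named genes under the alternatives, 1653 kept their side of the thresholds. Among these were 140 that changed sign but were called in neither fit. The total includes KO retina against Het retina and the difference of the KO effect, where 0 genes were called as scaled, so few of those values could change side. With deposited totals in place of TMM factors, 5 of the 7 core genes were called in each comparison of rods with retina, Map2k1 turned to -0.53 in KO mice and passed, and 2 pathway genes were called in KO rods against Het rods. Once the GC trend was removed, 0 core genes and 0 pathway genes were called in KO rods against Het rods, with or without the replicate block, and Ksr1 and Rce1 turned to -0.039 and -0.053. That alternative also moved the paralogue differences to -0.73 for Map2k1 over Map2k2 and 0.31 for Hras over Nras, both passing. In 1 fit of all 12 libraries, 0 core genes passed in Het rods against Het retina, with Braf at -0.50, and 0 core and 0 pathway genes in KO rods against Het rods. In Het libraries alone the differences were 0.12 for Map2k1 over Map2k2 and -0.044 for Hras over Nras, both of the other sign, where no p below 0.1 is possible. The cause of these changes was not tested.

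Leaving out 1 library gave 1 to 3 core genes in Het rods against Het retina, 2 to 4 in KO rods against KO retina, and 1 to 7 pathway genes in KO rods against Het rods. The upper ends came without Het retina replicate 3, KO retina replicate 2 and KO rods replicate 3. Of all genes, 6537 of 13396, 6411 of 13455 and 1871 of 12841 were called in those fits. All-gene counts moved by over 1.5 times without Het retina replicate 1 (5334 against 9376), without KO retina replicate 1 or 2 (5796 and 6411 against 10033), and without Het rods replicate 1 or KO rods replicate 2 (887 and 1100 against 1710). They also moved with the GC trend removed in KO rods against Het rods, to 348, or 404 with the replicate block. Leaving out Het retina replicate 1 also cut the genes tested from 16110 to 13394. Leaving out KO retina replicate 1 or 2 cut them from 16121 to 13458 or 13455. A gene read in retina alone could then no longer reach the 3 libraries of the filter, so these counts are not over the same genes.

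With the replicate block, Map2k2 in KO rods was at 1.21 (limma adjusted p = 1.08e-05), 1 core gene and 1885 genes were called there, and no core call changed in any of the 5 comparisons. Paired sign flips left both paralogue differences short of the threshold (exact permutation, adjusted p = 0.656), and 0.0312 is the smallest unadjusted p they allow. Same-numbered libraries correlated at 0.18, 0.03 and 0.03 in KO rods against Het rods, and at 0.40, -0.59 and -0.14 in the retina comparison, so these share only a number. Without the Het and KO retina libraries of highest GC trend, a choice made after seeing the data, Map2k1 over Map2k2 differed by -0.74 and Hras over Nras by 0.55 (exact permutation, adjusted p = 0.0667 for both). Depth is unknown, so no counting limit is given for low values such as those of Mapk7 and Rras2 in rods.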
